A study of Mus musculus with 2 samples.

Results

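The let-7 family and its close relative miR-98 were followed here on the 2 miRNA arrays of the study, by all spots whose name, without its species prefix, is let_7a, let_7b, let_7c, let_7d, let_7d_AS, let_7e, let_7f, let_7g, let_7i or miR_98, written below as let-7a to let-7i and miR-98. These are 10 of the 377 probes on each array other than controls, and 10 of the 255 kept as mouse miRNAs with 1 probe each. Every probe has 4 spots. Total RNA of C3H10T1/2, a mouse cell line of mesenchymal origin, was labelled with Cy3, a fluorescent dye read in the green channel of the scanner. Labels do not say whether the cells were pooled from several cultures. One array held RNA of cells given BMP7, a bone morphogenetic protein, at 3.3 nM over 3 days, and the other held RNA of cells given vehicle over 3 days. The question of the study was which miRNAs BMP7 regulates in this line. Each condition has 1 array and no replicate, so differences between the arrays have no replicate check, no test was possible, and the precision is limited by the number of arrays. Errors are standard deviations (SD) or standard errors (SE) over a probe's 4 spots, which cover the spread within an array only.

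Let-7 miRNAs bind messenger RNAs through the seed near their 5′ end and lower the output of growth and stem cell genes, among them those for LIN28, HMGA2 and RAS proteins. LIN28 in turn blocks the maturation of let-7 precursors. Mature let-7 is scarce in early embryonic cells and builds up as cells differentiate, and in mesenchymal cells it has been tied to the balance between growth, bone and fat formation. Members come from several genes, often in clusters with each other or with miRNAs of the miR-125, miR-99 and miR-100 families.

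The mature mouse sequences are shown because members differ by few bases and a probe for one can bind another. They are RefSeq's (GRCm38.p6), written 5′ to 3′, with the seed, bases 2 to 8, in capitals.
let-7a: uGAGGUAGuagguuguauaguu
let-7b: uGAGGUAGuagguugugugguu
let-7c: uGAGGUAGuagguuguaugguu
let-7d: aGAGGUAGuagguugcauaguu
let-7e: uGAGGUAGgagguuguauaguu
let-7f: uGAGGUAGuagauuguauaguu
let-7g: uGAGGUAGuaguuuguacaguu
let-7i: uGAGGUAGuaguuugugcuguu
miR-98: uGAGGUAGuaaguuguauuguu
let-7d-3p: cUAUACGAccugcugccuuucu

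All 9 let-7 and miR-98 guide strands share the seed GAGGUAG, which 11 of the 1679 mouse mature miRNAs of that table (0.655%) carry at bases 2 to 8. The last line is the opposite strand of the let-7d hairpin, with another seed; the probe let-7d_AS is taken to read it from its name, since no probe sequence was used here. Counted from 1 at the 5′ end, let-7c differs from let-7a by A19G, let-7e by U9G and let-7f by G12A. Let-7b differs from let-7a by A17G and A19G, and let-7d by U1A and U16C. Let-7g carries G12U and U18C, and miR-98 carries G11A and A19U. Let-7i is the most distant, with 4 differences from let-7a. Signals of single members may therefore not be independent, and how far probes bind other members was not tested.

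In RefSeq (GRCm38.p6) 12 hairpin genes of the family are listed, named for the miRNA they give. On the minus strand of chromosome 13 lie Mirlet7d (chr13:48536012-48536114), Mirlet7f-1 (chr13:48537829-48537917) and Mirlet7a-1 (chr13:48538179-48538272), within the span of no other listed gene. Mirlet7c-2 (chr15:85706603-85706697, plus strand) and Mirlet7b (chr15:85707319-85707403, plus strand) are 621 bases apart inside the span of the long noncoding RNA gene Lncppara. Mirlet7c-1 (chr16:77599657-77599750, plus strand) follows Mir99a by 656 bases. Mirlet7e (chr17:17830352-17830444, plus strand) lies inside the span of Spaca6, 94 bases from Mir99b and 367 from Mir125a. Mirlet7a-2 (chr9:41536716-41536811, plus strand) lies with Mir100 and Mir125b-1 inside Mir100hg, another long noncoding RNA gene. Mirlet7g (chr9:106178840-106178927, plus strand) lies inside the span of Wdr82, and Mirlet7i (chr10:122985640-122985724, minus strand) within the span of no other listed gene. Mirlet7f-2 (chrX:151912346-151912428, plus strand) and Mir98 (chrX:151913214-151913321, plus strand) are 785 bases apart inside the span of Huwe1. A probe cannot tell apart the genes that give one mature sequence, as with let-7a, let-7c and let-7f.

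Most spots were hardly brighter than the glass around them in the Cy3 channel. Local backgrounds had a median of 4650 intensity units with BMP7 and 3756 with vehicle, and 63.9% and 44.5% of the probe spots lay below their own background. A miRNA was called detected when at least 2 of its 4 spots exceeded the local background by 948 units on the BMP7 array or by 1152 on the vehicle array, each 2 standard deviations of the local backgrounds. By this rule 64 of the 255 mouse miRNAs were detected on 1 or both arrays. All 6 probes of a list of mesenchymal miRNAs were among them, against 1 of 6 for blood cells, 1 of 5 for epithelium, and none of the 3 muscle, 3 neuron and 1 liver probes. Per the file headers, the laser reading of the red channel was 3.18 for the BMP7 scan and 3.08 for the vehicle scan, and that of the green channel was 3.17 and 2.45. The part of this setting in the results below was not tested.

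Of the 10 members, 6 were detected, each on both arrays: let-7a, let-7b, let-7c, let-7d, let-7e and let-7i. All 6 were dimmer on the BMP7 array. In RNA from whole cultures, a lower level per cell and fewer cells that make a miRNA cannot be told apart. Below, net signal means the Cy3 brightness of a spot minus its local background, in intensity units with no scaling between the arrays. The log2 change means BMP7 minus vehicle after background correction and quantile normalization, which gives both arrays the same distribution of values.

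Let-7e, which comes from a cluster with miR-99b and miR-125a, had the lowest change. Its 4 spots had net signals of 12454, 14148, 12966 and 13067 with vehicle and of 4039, 3564, 4019 and 3788 with BMP7. Every BMP7 spot was far below every vehicle spot. The log2 change was -1.23 ± 0.10 (SE), or 2.34-fold lower, and in net signal the ratio of vehicle to BMP7 was 3.42.

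Let-7c, made by 2 genes, was similar. Its net signals were 14788, 16231, 14615 and 16046 with vehicle and 5795, 5553, 5922 and 6002 with BMP7. The spots of the arrays did not overlap, and within each array they lay close together. The log2 change was -1.03 ± 0.11, or 2.04-fold lower. With median scaling in place of quantile normalization it was -1.04.

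Let-7a, the form conserved from worms to humans, had net signals of 8886, 9450, 8081 and 9186 with vehicle and of 4316, 3424, 2845 and 3647 with BMP7. The arrays did not overlap. The log2 change was -0.71 ± 0.12. Let-7b, encoded beside one let-7c gene, had net signals of 11163, 11286, 11397 and 13393 with vehicle and of 5420, 5313, 4492 and 5264 with BMP7. Again no BMP7 spot reached a vehicle spot. Its log2 change was -0.49 ± 0.16 with quantile normalization but -0.83 with median scaling, and the net signal ratio of vehicle to BMP7 was 2.31.

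Let-7d and let-7i were dimmer with spots that overlapped after normalization. Let-7d had net signals of 2294, 2340, 2616 and 2835 with vehicle and of 1854, 1179, 1335 and 1278 with BMP7. These raw values stand apart, while the normalized levels overlap through 1 BMP7 spot, and the log2 change was -0.21 ± 0.09. Let-7i passed the detection rule only narrowly, with 2 of 4 spots under BMP7 and 3 of 4 under vehicle. Its net signals were 621, 1201, 4143 and 4790 with vehicle and 582, 146, 2389 and 2038 with BMP7, so that spots 1 and 2 were dim and spots 3 and 4 bright on both arrays. The log2 change was -0.29 ± 0.51, and with spots paired by their place on the array the error was 0.20 and 3 of 4 pairs were lower.

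**Figure D1:**
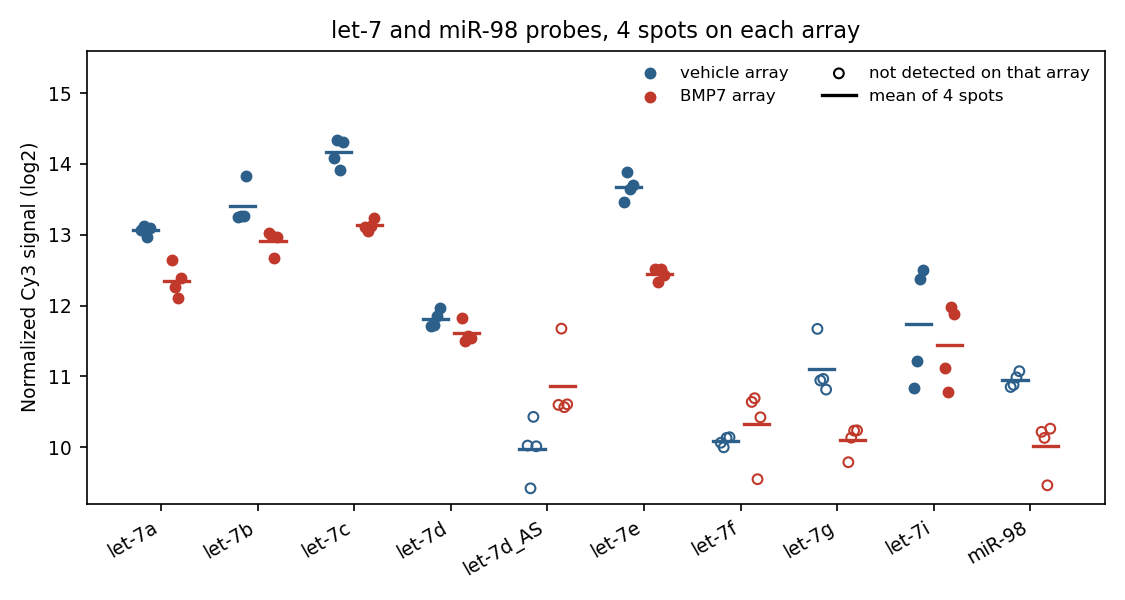
Normalized Cy3 signal (log2) of the 4 spots of each of the 10 probes on the vehicle array (blue) and the BMP7 array (red), with bars at the mean and open circles where the probe was not detected. Let-7a, let-7b, let-7c and let-7e stand apart between the arrays, at log2 changes of -0.71, -0.49, -1.03 and -1.23, and let-7d and let-7i overlap.

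Over the 6 detected members the median log2 change was -0.60, beside -0.02 over all 64 detected mouse miRNAs, which include the family. All 6 were below 0, as were 51.6% of the 64. For 4 of the 6 the BMP7 spots were all below the vehicle spots, as for 23.4% of the 64, and for none were they all above, as for 18.8%. Let-7c and let-7e were at least 2-fold lower, as were 7.81% of the 64, and none was at least 2-fold higher, as were 4.69%. In the order of change, the detected miRNAs next below the family were miR-494 and miR-190, both not well above background with BMP7. Next above the family were miR-298 (-0.20 ± 0.13), detected on both arrays, and miR-107 (-0.15 ± 0.29), also not well above background with BMP7.

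The 4 other members passed the detection rule on neither array, so they get no fold. Let-7f, which differs from let-7a by 1 base, had net signals between -165 and -78 with vehicle and between -884 and 23 with BMP7, so it lay at its surroundings on both. Let-7g had 2187, 771, 811 and 580 with vehicle and -764, -510, -424 and -420 with BMP7. MiR-98 had 634, 678, 830 and 942 with vehicle and -444, -513, -916 and -403 with BMP7. Both were above their surroundings with vehicle and below them with BMP7, in all spots, though only 1 vehicle spot of let-7g passed the detection margin. In unprocessed brightness miR-98 was not dimmer, with means of 3933 under BMP7 and 3768 under vehicle. Its local background was higher under BMP7, at 4502 against 2997. Let-7d_AS had -149, -550, 164 and -155 with vehicle and -69, 1516, -110 and -64 with BMP7, and 1 bright spot set its mean.

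A feature of the sequences, picked after the values were known, is found in most of the detected members. Its share among the miRNAs on the array was not counted, so it is no test of what sets detection. The letters AGGUUG occur in let-7a, let-7b, let-7c, let-7d and let-7e, 5 of the 6 detected members, and in no undetected member. They occur on the given strand of 23 of the 1679 mouse mature miRNAs (1.37%). Let-7i, the sixth, lacks them. This describes the sequences only; how the probes bind them was not tested.

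The changes were also set against the place of the probes on the array. The array is printed in 16 blocks, and 4 members lie in block 13 (let-7a, let-7c, let-7e and let-7g), 4 in block 5 (let-7b, let-7d, let-7f and let-7i), let-7d_AS in block 8 and miR-98 in block 16. After background correction and quantile normalization, the median log2 change over all probes of a block ranged from -0.73 to 0.62. Block 13 was the lowest, at -0.73, and block 5 was at 0.21. Of the other miRNAs of block 13, 4 were detected, with a median of -0.72 and all 4 below 0. Only miR-145 (-0.57 ± 0.05) was detected on both arrays. MiR-125a, miR-147 and miR-190 were detected with vehicle alone. That selection favours a value below 0, so nothing is drawn from their signs, and a shift of the block was not tested. Block 13 also had the largest difference in local background, 1564 units more with BMP7 than with vehicle, against a median of 844 over the blocks. Without background correction or scaling, the median change of brightness in block 13 was 0.12, close to the median of 0.13 over the blocks. The 12 Cy3 control spots of block 13 were 0.08 below the mean of the blocks, a log2 change net of background of -0.32 against -0.24.

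Set against the median of its own block, let-7a was no longer lower, at 0.01. Let-7c was at -0.30 and let-7e at -0.50, less than before, while let-7b was at -0.70, let-7d at -0.42 and let-7i at -0.50, more than before. Thus 5 of 6 lay below their block, as did 56.2% of the 64 detected miRNAs, with a median of -0.46. A block's median covers all its probes, detected or not, and whether it holds for bright probes was not tested. Set against the other detected miRNAs of the block, of which block 5 holds 2 and block 13 holds 4, the members' median was -0.09 and 3 of 6 were lower: let-7b, let-7c and let-7e. The share of the 64 detected miRNAs below such a reference was not counted, so nothing is drawn from this count. In this reference miR-130a in block 5 and the 3 miRNAs named above in block 13 were detected with vehicle alone, a selection that can lower it. In block 5 its median was -0.30, beside 0.21 over all probes of the block. In block 13 it was -0.72, beside -0.73. How far the selection moved this reference was not tested.

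**Figure D2:**
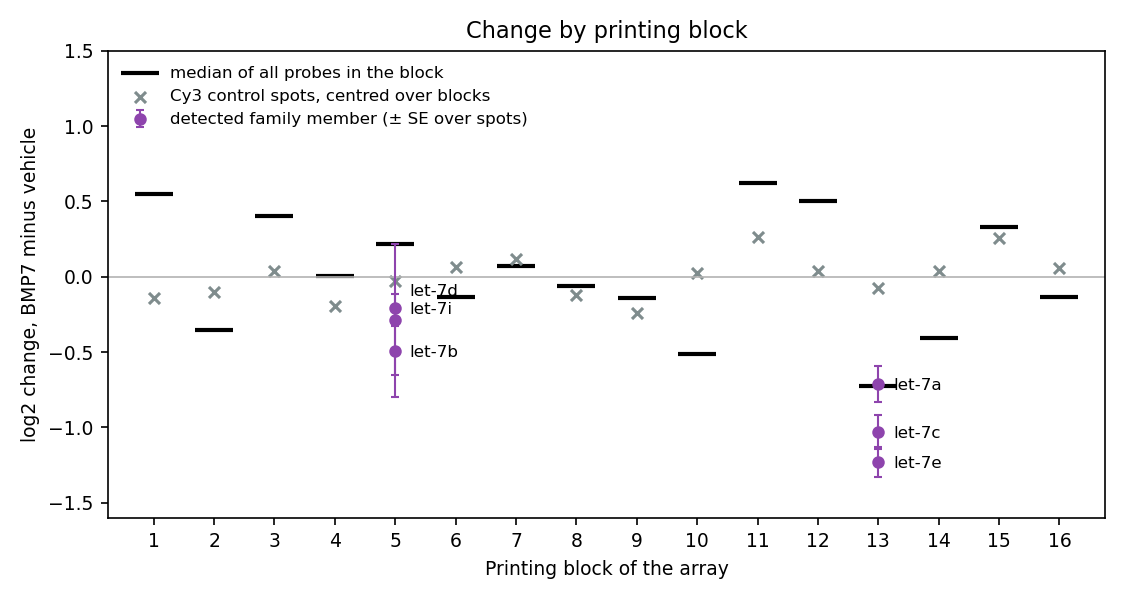
Log2 change (BMP7 minus vehicle) by printing block, as the median of all probes in the block (black bars), the Cy3 control spots net of background and centred over the blocks (crosses) and the 6 detected members (points with SE over 4 spots). Let-7a lies at the median of block 13 (-0.73), let-7c and let-7e lie below it, and let-7b, let-7d and let-7i lie below the median of block 5 (0.21).

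Unprocessed brightness, which uses neither the background nor any scaling, also put the family at the low end. Of all 377 probes, let-7e had the lowest log2 change of brightness at -0.98, let-7c the second lowest at -0.82 and let-7b the third lowest at -0.72. Let-7a was sixth at -0.52. The changes of let-7i (-0.28) and let-7d (-0.19) were smaller in size. For comparison, the 64 detected mouse miRNAs had a median brightness change of -0.0005, and the 377 probes, most of them not detected, one of 0.14. Against the median brightness change of its block let-7e was at -1.10, let-7c at -0.94, let-7b at -0.79, let-7a at -0.64, let-7i at -0.35 and let-7d at -0.26. Here the 3 members of block 13 do not lie at their block's median. The block result above and this one differ in whether the local background is taken off and whether quantile normalization is applied. Which is nearer to the RNA was not tested.

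The second channel of the scans was dimmer with BMP7 for the same 6 probes in unprocessed brightness, as for 67.9% of all 377 probes. No source used here says what this red channel held. Per the file headers, the images of both channels have 2 names for BMP7 and 1 for vehicle. Let-7e had a mean red brightness of 4452 ± 502 (SD over 4 spots) with BMP7 and 6860 ± 848 with vehicle. Let-7c had 6384 ± 559 and 9456 ± 432, let-7a 6038 ± 668 and 8239 ± 436, and let-7b 6064 ± 173 and 7376 ± 473. For these 4 the BMP7 spots were all below the vehicle spots in the second channel too, as for 37.5% of the 64 detected miRNAs. Let-7d had 6342 ± 768 and 7275 ± 409 and let-7i 1874 ± 1083 and 2203 ± 1568, with overlapping spots. On the log2 scale the second channel changed by -0.62 for let-7e, -0.57 for let-7c, -0.45 for let-7a and -0.28 for let-7b. Smaller changes were found for let-7i (-0.23) and let-7d (-0.20). For comparison, the 64 detected miRNAs had a median change of -0.175 in this channel, and all 377 probes one of -0.12. After quantile normalization of this channel the family median was -0.072, let-7b was at 0.091 and let-7d at 0.16, and for 1 member the spots stood apart. Among the undetected members miR-98 was brighter there, at 1481 ± 92 with BMP7 and 1264 ± 96 with vehicle, and let-7f was alike at 2531 ± 375 and 2515 ± 199.

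**Figure D3:**
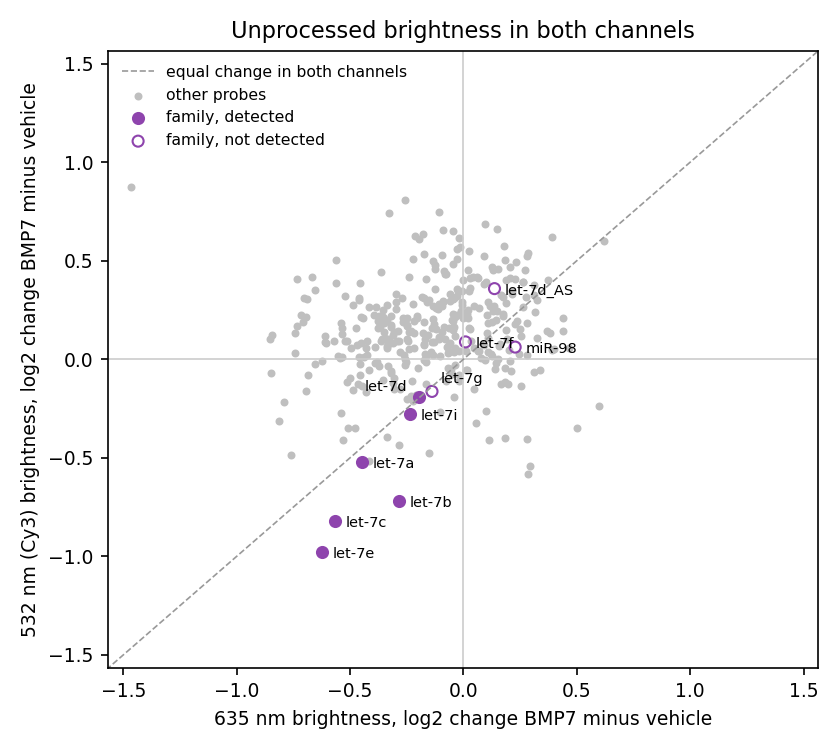
Log2 change (BMP7 minus vehicle) of unprocessed brightness in the red channel (horizontal axis) and in the Cy3 channel (vertical axis) for 377 probes, with the family in purple (open where not detected) and a dashed line where both channels change alike. The 6 detected members lie at the lower left, with let-7e at -0.62 and -0.98, while let-7f and miR-98 lie near the other probes.

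The authors' deposited table gives, for array probes, the Cy3 over the red brightness, set against the same ratio of control spots. A value rebuilt in this way from the scans matched the deposited one within 0.1% on both arrays for all 9 family rows on the array. In the authors' deposited table let-7c went from 0.0963 with vehicle to 0.0948 with BMP7, a fold of 0.984, and let-7i from 0.201 to 0.194, a fold of 0.963. Let-7b went from 0.106 to 0.0914 in the authors' deposited table, a fold of 0.865 and the fifth lowest of its 339 array rows. Let-7a was at 1.12-fold, let-7d at 1.19-fold, let-7g at 1.14-fold, let-7f at 1.25-fold, let-7d_AS at 1.36-fold and miR-98 at 1.04-fold in that authors' deposited table.

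In the authors' deposited table, 6 of the 9 family rows had a fold above 1, as had 92.6% of its 339 array rows. The median fold of those rows was 1.46, and all 9 family rows lay below it, as did 49.9% of the rows by construction. The log2 fold against that median was -0.75 for let-7b, -0.60 for let-7i, -0.57 for let-7c, -0.38 for let-7a and -0.30 for let-7d. Let-7d_AS, at -0.10 against that median, and let-7f, at -0.22, were the nearest to it in the authors' deposited table. Let-7e has no array row there.

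The authors' deposited table also holds a customized panel of 16 miRNAs, with no assay, scale or reference named in the sources used here and 1 value per group and no error. Let-7e was listed at 1.52e-08 with BMP7 and 1.38e-08 with vehicle, a fold of 1.11 in the authors' deposited table. MiR-98 was listed at 0.000337 and 0.000300, a fold of 1.12 in the authors' deposited table, beside 1.04 for its array row. In the authors' deposited table, of all 16 panel rows, 7 were higher and 9 lower. For let-7e the panel value was higher with BMP7 and the Cy3 signal lower, and with no error for the panel this difference was not tested.

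**Figure D4:**
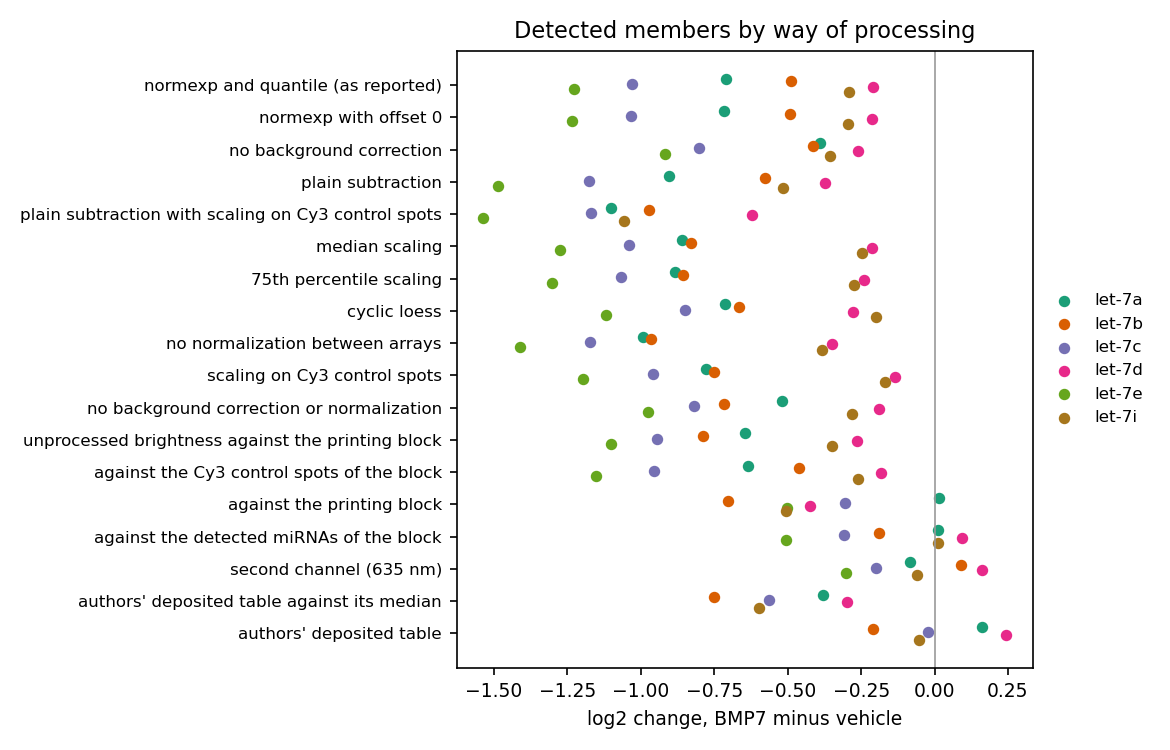
Log2 change (BMP7 minus vehicle) of the 6 detected members under the ways of processing listed, 1 point per member, with let-7e absent from the rows of the authors' deposited table. All points lie below 0 for the settings that change only background correction or scaling, and some lie at or above 0 when a change is set against the printing block or its detected miRNAs, or is taken from the second channel or the authors' deposited table.

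The 5 miRNAs whose genes lie in clusters with let-7 genes all have probes: miR-99a, miR-99b, miR-100, miR-125a and miR-125b, which are processed from shared or neighbouring transcripts but have other seeds. Of these 5, 4 were detected, as were 64 of the 255 mouse miRNAs. Of the 4, 3 were below 0, as were 51.6% of the 64. Their median log2 change was -0.29, beside -0.02 over the 64. For none did the spots of the arrays stand apart, against 23.4% of the 64 with BMP7 below vehicle. MiR-99b, 94 bases from let-7e but printed in block 16, was at -0.30 ± 0.12 beside -1.23 ± 0.10 for let-7e. Set against the medians of their blocks, miR-99b was at -0.17 and let-7e at -0.50. The part of the blocks in this difference was not tested. MiR-125a, from the same cluster and printed in block 13 like let-7e, was not well above background with BMP7. Its fitted log2 change was -0.27 ± 0.14 with overlapping spots, and it was above 0 in unprocessed brightness, at 0.080. In the panel of the authors' deposited table miR-125a-5p was 2.30-fold lower with BMP7, while its array row there was 1.68-fold higher. MiR-99a, beside a let-7c gene, was at -0.34 ± 0.14, and miR-125b, printed in block 5, at 0.06 ± 0.13. MiR-100, which neighbours Mirlet7a-2, was not detected. MiR-202, which begins much like let-7 but is outside the family, was not detected either, and the authors' deposited table lists it at 2.58-fold.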

How the data were processed

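The 2 scanner exports hold intensity values, the mean spot brightness in the red and green channels, made by the authors with GenePix Pro 5.1.0.19 with no normalization, per the file headers. Their deposited sum and ratio of background-subtracted means, which can be negative and are used as a score, gave the local background of 1727 of 1728 spots on each array, and 1 spot took its block's median. The deposited table and matrix hold the same ratio values, in 355 rows. RNA was polyadenylated and labelled with the mirVana kit, per the labels' protocols.

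Green intensity went through limma 3.58.1 (R 4.3.3), first normexp with an offset of 50, then quantile normalization without controls, and each probe is the mean log2 of its 4 spots. Further steps used Python 3.11.15 with pandas 2.3.3 and numpy 2.4.6. The normalization was run on simulated data, with both arrays drawn from the vehicle array, to check that the sign of set changes is recovered. Differences in local background between the arrays were not simulated. The detection rule, the members and the lists were chosen with earlier results of these data known. Named were all members, 5 cluster partners, miR-202 and the 2 detected miRNAs on either side in the order of change. Probe names were matched to RefSeq (GRCm38.p6) mouse miRNAs, and all 10 members had a sequence. Alternatives changed the background correction, the scaling, the spots used, the channel and the reference for a change.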

Additional observations from a re-analysis of the deposited data

Results flagged for a closer look

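The report's main measurement is the Cy3 channel. In the second channel (red) all 10 members were above the brightest of 16 Control_1 spots on both arrays. Those spots reached 412 with BMP7 and 319 with vehicle. The share of all 377 probes above these values was not counted, so this neither sets the family apart nor shows that a member was present. Mean red brightness on the BMP7 array was 6037.5 for let-7a, 6063.5 for let-7b, 6384.25 for let-7c, 6341.75 for let-7d, 4452 for let-7e and 1873.75 for let-7i. The members not detected in the Cy3 channel were at 510.25 for let-7d_AS, 2531.25 for let-7f, 2045.5 for let-7g and 1480.75 for miR-98. Each group has 1 array, so no array was compared with others of its group.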

How the results depend on the processing

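No paired analysis was possible because each group has 1 array. Low signal over background limits what could be detected, and 8 settings were chosen after seeing the data: those against the printing block, its detected miRNAs or its Cy3 control spots, unprocessed brightness with and without the block, the second channel (quantile normalized), plain subtraction scaled on Cy3 control spots, and the authors' deposited table against its median. Under the 10 alternatives of background correction and scaling alone the median log2 change of the detected members lay between -1.08 and -0.40, with all 6 lower in each. Where values moved, the cause was not tested. No member or partner has a second probe from another species.

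The family median was -0.84 with median scaling, -0.87 with 75th percentile scaling, -0.98 with no normalization between arrays and -1.08 with plain subtraction scaled on Cy3 control spots. The median of all 64 detected miRNAs was then -0.05, -0.07, -0.18 and -0.85, and it was -0.38 with plain subtraction. The family median was -0.072 in the second channel and -0.089 against the detected miRNAs of the block. In the authors' deposited table it was -0.023 over the 5 detected members with an array row and 0.16 over all 9 family array rows. Without 1 spot the family median in the Cy3 channel lay between -0.69 and -0.54. Members below 0 numbered 3 of 5 in the authors' deposited table and 3 of 6 against the detected miRNAs of the block, and 1 had its spots apart in the second channel. The share of the 64 below the detected miRNAs of their block was not counted. Single members were above 0 as follows: let-7a (0.16) and let-7d (0.24) in the authors' deposited table, let-7a against its block (0.015), let-7a (0.011), let-7d (0.092) and let-7i (0.011) against the detected miRNAs of the block, and let-7b (0.091) and let-7d (0.16) in the second channel.

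The median of the cluster partners was -0.57 with plain subtraction, -0.77 with that scaled on Cy3 control spots, 0.0095 in unprocessed brightness, 0.11 in the second channel, 0.38 in the authors' deposited table and 0.19 against the detected miRNAs of the block. In unprocessed brightness, there and here by the mean log2 of 4 spots, miR-99b was at 0.10, miR-125a at 0.078 and miR-125b at -0.059. The 0.080 given above for miR-125a is the log2 ratio of its mean brightness. In the second channel miR-99a was at 0.18 and miR-99b at 0.12. In the authors' deposited table miR-99a was at 0.18, miR-99b at 0.57 and miR-125a at 0.75, and against that table's median miR-99b was at 0.025, miR-125a at 0.20 and miR-125b at -0.39. Against its block miR-125a was at 0.46 and miR-125b at -0.16, or -0.13 in unprocessed brightness, and against the detected miRNAs of the block miR-99a was at 0.024 and miR-125a at 0.45. MiR-125b was at -0.11 with no background correction, at -0.0029 with the median of 4 spots and at -0.068 without spot 4.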
